A study of Mus musculus with 8 samples.

Results

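Chandelier-enriched candidate marker genes are 9 genes, *Trib2*, *Pthlh*, *Unc5b*, *Zfp804b*, *Thsd7a*, *Mctp2*, *Fam163b*, *Kit* and *Amy1*, of the 23335 gene names in a table of molecule counts from single mouse interneurons. They were chosen by name, with their higher counts in chandelier cells (ChC) than in parvalbumin cells (Pv) of this same table already known. Every difference between ChC and Pv given for them is therefore a description, without a test. Each count is 1 unique molecular identifier (UMI), a random tag that marks 1 captured molecule, and counts of all rows that carry the same gene name were summed.

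The cells came from frontal cortex of 4 female mice, 2 per cell type, and were picked by hand for red fluorescence. The sample titles give the mice of both cell types as WT (wild type). ChC were labelled by *Nkx2.1*-CreER; Ai14, a line in which a tamoxifen-dependent Cre under the *Nkx2.1* promoter switches on the Ai14 red reporter, with tamoxifen given at embryonic day 17.5. Pv cells were labelled by *Pv*-ires-Cre; Ai14, in which Cre follows the parvalbumin gene, so any cell with a history of parvalbumin expression could carry the reporter. The labels give the tamoxifen entry, which names *Nkx2.1*-CreER, for the Pv samples too, and whether Pv animals received tamoxifen cannot be told from them. Animal 1 (postnatal day 31) gave ChC library batches 1 and 2, animal 2 (postnatal day 32) ChC batches 3 and 4, animal 3 (postnatal day 29) Pv batches 5 and 6, and animal 4 (postnatal day 35) Pv batches 7 and 8. Each batch held 16 cells. After removal of 2 cells without counts, 63 ChC and 63 Pv cells remained. Each cell type had its own mouse line and its own sequencing flow cell, and each animal its own age and lane, so these cannot be told apart.

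Chandelier cells are GABAergic interneurons whose axon forms rows of boutons on the axon initial segment of pyramidal neurons, the site where action potentials start. Basket cells that express parvalbumin contact the cell body and proximal dendrites instead. Both arise largely in the medial ganglionic eminence, where *Nkx2-1* is expressed, and few genes are known that mark the chandelier type in the adult cortex.

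Depth differed between batches and cells. ChC batches 1 to 4 held 527743, 657957, 2898413 and 1307666 UMI, and Pv batches 5 to 8 held 456458, 501563, 370238 and 921212. Single ChC cells held a median of 39200 UMI (1053 to 606191), and single Pv cells 27116 (2325 to 108081). Levels are given as CPM, the count of a gene per 1000000 UMI of its batch. Intervals and floors given below cover counting error only.

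The labels were checked against marker genes. *Slc32a1*, the vesicular GABA transporter, was at 1290.4 to 2502 CPM in the ChC batches and 1086 to 2833 CPM in the Pv batches. *Pvalb* was lower in each ChC batch (74.2 to 166 CPM) than in any Pv batch (573 to 1413 CPM). *Tac1*, listed beside it for Pv basket cells, went the other way in 1 batch, with 11.4, 1787, 0 and 3.82 CPM in ChC and 188, 0, 273 and 556 CPM in Pv. The 3 markers of that list therefore summed to 1964 CPM in ChC batch 2, above every Pv batch (714 to 1639 CPM), and to at most 140.2 CPM in the other ChC batches. Of the marker genes listed for chandelier cells, *Vipr2* was at 9.47, 35.0 and 42.1 CPM in ChC batches 1 to 3 and at 0 in ChC batch 4 and in all Pv batches. *Cpne5* was at 96.6, 65.4, 272 and 19.1 CPM in the ChC batches and reached 40.5 CPM in Pv batch 7, so its groups overlapped. *Nkx2-1* itself was at 98.5 to 135 CPM in ChC and 41.2 to 140.2 CPM in Pv batches, which also overlapped.

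Cells of the same batch shared their expression profile, and this bears on every single-cell value below. For genes with at least 100 UMI in a batch, counted on the row with the most UMI, the chi-square of a gene's counts over cells, taken against shares set by the totals of the cells and divided by its degrees of freedom, would be 1 for counting error alone. Its median over genes lay between 0.991 and 1.25 in the 8 batches (585 to 5075 genes per batch). Of the 9 genes, those above 2 were *Zfp804b*, with 2.33, 3.44 and 2.00 in ChC batches 2 to 4, and *Unc5b*, with 2.43 in batch 2. Where the 9 reached 100 UMI in a ChC batch, their median was 0.976, 1.19, 1.54 and 1.71 in batches 1 to 4, and the lowest value was 0.561 (*Pthlh*, batch 2). Between the 4 ChC batches the same measure had a median of 116 for the 9 genes (41 to 343) and 37.9 for 7334 genes. At the same relative spread this measure rises with the UMI of a gene, and the 9 were not matched in counts to the others. Nothing is read from the gap between these medians, but both lay far above 1. The batch rather than the cell was therefore taken as the unit for levels, and the cause of the shared profiles was not tested. Whether a UMI counted in a cell came from that cell was not tested either, so each count of cells with a gene, or with several genes, given below is a count of cell barcodes and may not describe single cells.

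Single ChC batches also stood apart from the others in genes that the 9 do not include. *Tac1* had UMI in 16 of 16 cells of batch 2, with 1443 to 2186 CPM in cells of at least 10000 UMI, and in none of the 16 cells of batch 3. *Adarb2*, a marker of interneurons of the caudal ganglionic eminence, had UMI in 15 of 15 cells of batch 4 with 792 to 1740.3 CPM in the deeper cells. The 5 listed caudal eminence markers summed to 1746 CPM in batch 4 and to 39.8, 51.7 and 279 CPM in batches 1 to 3, with *Vip* at 0 in every batch. *Adarb2* was the most abundant of them in batch 4 (1449 CPM), and *Cck* in every other batch, ChC or Pv (20.8 to 307 CPM). Over the Pv batches this sum was 83.2, 343, 357 and 137 CPM. The 4 medial eminence markers summed to 556 CPM in batch 4, the lowest of the 8 batches, beside 1258, 1444 and 1755 CPM in ChC batches 1 to 3 and 1253 to 3417 CPM in Pv. The 4 genes did not go together: in batch 4 *Sox6* had its lowest level of the 8 batches (81.8 CPM) and *Nkx2-1* its highest ChC level (135 CPM), *Lhx6* (330 CPM) was above ChC batch 2 and Pv batches 5, 6 and 8, and *Satb1* (9.18 CPM) was above ChC batch 1. The neurogliaform markers listed in the table by name, *Reln* and *Npy*, summed to 773 CPM in batch 4 and to 28.4, 89.7 and 12.8 CPM in batches 1 to 3; in the Pv batches they summed to 21.9, 138, 43.2 and 513 CPM. Batch 4 also held the lowest level of *Zfp804b*, *Thsd7a*, *Fam163b* and *Amy1* among ChC batches, and the part of these other genes in that was not tested. Microglial markers (5 genes, *P2ry12* the most abundant, *C1qa* at 0) summed to 84.9 CPM in batch 4 and to at most 4.14 CPM in the other ChC batches and 5.98 CPM in the Pv batches. The 6 pyramidal markers, with *Camk2a* the most abundant and *Neurod6*, *Tbr1* and *Emx1* at 0 throughout, summed to 39.8, 448, 59.3 and 818 CPM in ChC and 464, 915, 1529 and 157 CPM in Pv batches. Astrocyte markers reached at most 266 CPM in sum (*Slc1a3* the most abundant, *Gfap* at 0), oligodendrocyte markers 232 CPM (*Mbp*, with *Mag* and *Mobp* at 0) and somatostatin cell markers 2.70 CPM (*Sst*, with *Chodl* at 0).

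In the levels per batch, all 4 ChC batches lay above all 4 Pv batches for 9 of the 9 genes. This holds for 1.58% of the 16531 genes with any UMI (261 genes), and nothing is read from the comparison because the genes were chosen by this contrast. The genes split into those nearly absent from Pv cells (*Trib2*, *Pthlh*, *Unc5b*, *Mctp2*, *Fam163b*, *Kit* and *Amy1*) and those present at a lower level there (*Zfp804b* and *Thsd7a*).

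**Figure D1:**
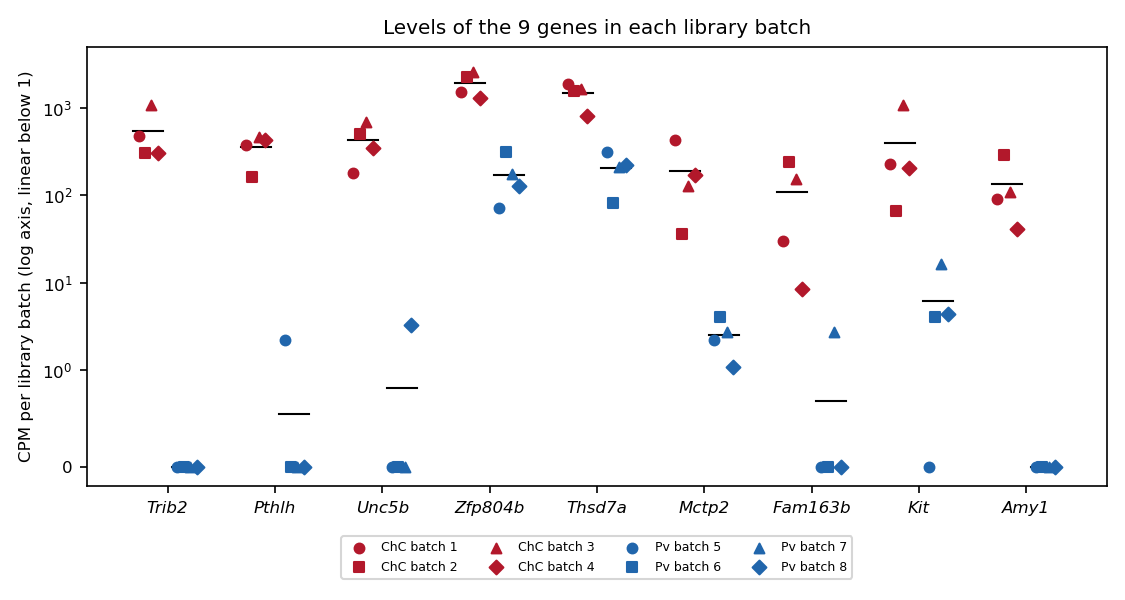
CPM of the 9 genes (vertical axis, logarithmic, linear below 1) in each of the 8 library batches. Red symbols are ChC batches, blue symbols Pv batches, the symbol shape names the batch, and black lines are means of 4 batches. Each red group lies above its blue group, with *Trib2* between 302 and 1087 CPM in ChC and at 0 in Pv.

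*Pthlh* encodes parathyroid hormone-like hormone, a secreted peptide that acts on the receptor *Pth1r*. It lies on the minus strand at chr6:147200632-147212607 (mm9). Its level was 381, 163, 469 and 432 CPM in ChC batches 1 to 4 and 2.19, 0, 0 and 0 CPM in Pv batches 5 to 8. ChC batch 2 was the lowest and the other ChC batches were close to each other. The ChC mean was 361 ± 137 CPM (SD, n = 4 batches), and the Pv mean 0.548 ± 1.1 CPM. In all, 2233 UMI were counted in ChC and 1 UMI in Pv cells, a ratio of 932 per total with a 95% exact interval of 167 to 36813. Without Pv batch 8 the ratio was 550.1 (98.6 to 21737), and without Pv batch 5, which held the 1 UMI, ChC was at least 248-fold higher (3 counts over the other Pv batches).

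*Unc5b* is a receptor for netrins that mediates repulsion of growing axons and vessels (minus strand, chr10:60225343-60294329). ChC batches 1 to 4 had 180.0, 500.0, 693 and 352 CPM, and Pv batches 5 to 8 had 0, 0, 0 and 3.26 CPM. The means were 431 ± 218 and 0.814 ± 1.63 CPM (SD, n = 4 batches each). The 3 UMI in Pv came from 3 different cells of batch 8, the deepest Pv batch. Pooled, 2892 UMI in ChC against these 3 gave a ratio of 402 (95% exact interval 137 to 1951), and of 266 (90.7 to 1292) without batch 3. Without Pv batch 8, ChC was at least 237-fold higher (3 counts over the other Pv batches).

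*Kit* is the receptor tyrosine kinase for stem cell factor, which is encoded by *Kitl* (plus strand, chr5:75971012-76052746). The table lists *Kit* in 2 rows that were equal in all 126 cells, so the summed counts hold each molecule 2 times. The summed level was 231, 66.9, 1089.6 and 205 CPM in the ChC batches and 0, 3.99, 16.2 and 4.34 CPM in the Pv batches. With 1 row per gene, these became 136, 39.5, 642 and 119 CPM in ChC and 0, 2.32, 9.48 and 2.51 CPM in Pv. Batch 3 stood far above the other ChC batches, and animal 2 as a whole had 815 CPM against 140.0 CPM in animal 1. Without batch 3, the ChC mean of the summed level went from 398 to 168 CPM, still above the highest Pv batch. By 1 row, ChC cells had 1796 UMI and Pv cells 6, a ratio of 126 (95% exact interval 57.9 to 345). Without batch 3 the ratio was 32.9 (14.9 to 90.7), from 217 UMI in ChC, and without Pv batch 7, which held 3 of the 6 UMI, it was 211 (72.2 to 1026).

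*Trib2* encodes a Tribbles pseudokinase, a scaffold that brings proteins such as C/EBPα to a ubiquitin ligase (minus strand, chr12:15798533-15823591). It had 474, 302, 1087 and 308 CPM in the ChC batches and 0 in each Pv batch. Batch 3 was again the highest, at 3.59 times the lowest. The ChC mean was 543 ± 371 CPM (SD, n = 4 batches), and 361 CPM without batch 3. With 4003 UMI in ChC and 0 in Pv, where 3 counts over all Pv cells would be 1.33 CPM, *Trib2* was at least 557-fold higher in ChC, and at least 256-fold without batch 3, which held 3151 of its UMI, or 329-fold without Pv batch 8, the deepest.

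*Thsd7a* encodes a membrane protein with thrombospondin type 1 repeats (minus strand, chr6:12261608-12699253). ChC batches had 1885, 1579, 1632 and 811 CPM and Pv batches 313, 81.7, 211 and 224 CPM. The ranges did not overlap, but 468 UMI of the transcript were counted in the Pv batches. The means were 1477 ± 464 and 207 ± 95.3 CPM (SD, n = 4 batches each), and the log2 fold change over animals fitted by edgeR was 2.97.

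*Mctp2* encodes a membrane protein with several C2 domains, modules that bind calcium (minus strand, chr7:79222716-79451481). Its ChC levels were 426, 36.5, 126 and 169 CPM, and its Pv levels 2.19, 3.99, 2.70 and 1.09 CPM. Batches 1 and 2 came from the same animal and held the highest and the lowest ChC level, 11.7-fold apart. Pv cells carried 5 UMI in 5 cells against 836 UMI in ChC, a ratio of 69.8 (95% exact interval 29.8 to 215).

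*Fam163b* encodes a small predicted membrane protein (minus strand, chr2:26965899-26997997). Its ChC batches had 30.3, 239, 156 and 8.41 CPM, the widest fold between batches of the 9 genes (28.4), and its Pv batches 0, 0, 2.70 and 0 CPM. Its lowest ChC batch held 11 UMI of the gene and lay 3.11 times above the highest Pv batch. Counts of 635 UMI in ChC and 1 UMI in Pv gave a ratio of 265 with a wide 95% exact interval (47.4 to 10480.2), and of 166 (29.4 to 6592) without batch 3. The ratio was 156 (28 to 6188) without Pv batch 8, and without Pv batch 7, which held the 1 UMI, ChC was at least 73.8-fold higher (3 counts over the other Pv batches).

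*Zfp804b* encodes a zinc finger protein and is the relative of *Zfp804a* (minus strand, chr5:6769030-7344378). Its span also holds 4921511H03Rik on the other strand, which had 51 UMI in all, and whether the authors' counting used strand is not given in the sources used here. ChC batches had 1518, 2292, 2612 and 1302 CPM and Pv batches 72.3, 315, 176 and 127 CPM. The lowest ChC batch was above the highest Pv batch, and the Pv batches of animal 3 held the lowest and the highest Pv level. The means were 1931 ± 622 and 172 ± 104 CPM (SD, n = 4 batches each), with a fitted log2 fold change of 3.64.

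*Amy1* encodes salivary amylase, an enzyme that cleaves starch (minus strand, chr3:113258870-113280668). Its 2 rows were equal in 124 of 126 cells, so it too is counted nearly 2 times in the sum. The summed level was 91.0, 293, 109.7 and 41.3 CPM in the ChC batches and 0 in the Pv batches, and 53.6, 176, 64.6 and 24 CPM with 1 row. Batch 2 was the highest, unlike for *Kit* and *Trib2*. By that row, 308 UMI in ChC and none in Pv put *Amy1* at least 43.3-fold higher in ChC, against 3 counts or 1.55 CPM, and at least 25.5-fold without Pv batch 8. The pancreatic amylase genes are close copies. Of the 1961 stretches of 25 bases in the longest *Amy1* transcript of GENCODE vM1, 194 (9.89%) also occur in *Amy2a5*, but none of the 276 in its last 300 bases. In the 4 shorter *Amy1* transcripts 37 to 95 of the last 276 do, so some tags could belong to either gene. *Amy2a5* had 42.8 CPM in ChC batch 4 and at most 3.99 CPM elsewhere.

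The 9 genes did not vary together between ChC batches. *Trib2*, *Pthlh*, *Unc5b*, *Zfp804b* and *Kit* were highest in batch 3, *Thsd7a* and *Mctp2* in batch 1, and *Fam163b* and *Amy1* in batch 2. The coefficient of variation over the 4 batches ran from 31.4% (*Thsd7a*) and 32.2% (*Zfp804b*) to 88.3% (*Mctp2*), 100.2% (*Fam163b*) and 117% (*Kit*). Its median over the 9 was 68.4%, beside 64.9% for the 2395 genes with a mean of at least 100 CPM in ChC (middle range 44.2% to 91.2%). The spread of the 9 between ChC batches was thus close to that of other genes of such levels.

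Differences between animals of the same cell type were not used to choose the genes and were tested with edgeR's quasi-likelihood test, 2 batches per animal. Between animals 2 and 1 (ChC), 0 of the 9 genes and 0 of 9448 genes tested (0%) passed an adjusted p of 0.05. Without adjustment 667 genes were at p under 0.05, none of the 9 among them, and DESeq2 called 97 genes. The largest difference was that of *Kit*, with a log2 fold change of 2.06 ± 1.30 (SE, adjusted p = 0.764 by edgeR), and its adjusted p was between 0.656 and 1 over the alternatives. *Amy1* had -1.34 ± 1.52 and *Trib2* 0.80 ± 1.06 (SE), both within their errors. Between animals 4 and 3 (Pv), 0 of 9448 genes passed (0%), with 747 at unadjusted p under 0.05 and 93 called by DESeq2. There *Zfp804b* had a log2 fold change of -0.71 ± 0.76 and *Thsd7a* -0.21 ± 0.79 (SE), with adjusted p of 0.820 and 0.960 by edgeR. The other 7 genes held too few UMI in Pv for this comparison and passed the filter only through their ChC counts. A p above the threshold with 2 batches per animal does not show that the animals were equal.

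In single cells, detection means at least 1 UMI of the gene in the cell. Intervals on shares of cells treat cells as independent, which cells of a batch are not, so they are too narrow for a cell type. *Zfp804b* and *Thsd7a* were detected in 63 of 63 ChC cells each (95% exact binomial interval 94.3% to 100%). *Trib2* and *Unc5b* were detected in 59 ChC cells each (93.7%, 84.5% to 98.2%) and *Pthlh* in 58 (92.1%, 82.4% to 97.4%). *Mctp2* followed with 54 cells (85.7%), *Kit* with 50 (79.4%), *Amy1* with 46 (73.0%) and *Fam163b* with 41 (65.1%). By batch, *Fam163b* was in 7 of 16, 13 of 16, 16 of 16 and 5 of 15 cells, and *Kit* in 12, 8, 16 and 14.

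In Pv cells the same split appeared as in the levels. *Zfp804b* and *Thsd7a* were detected in 59 of 63 Pv cells each (93.7%). The other 7 genes together had 22 UMI in 15 Pv cells. No cell held more than 1 UMI of any of them, apart from *Kit*, whose molecule is listed in both rows and gave 2. *Kit* was detected in 6 Pv cells (9.52%, 3.58% to 19.6%), *Mctp2* in 5 (7.94%), *Unc5b* in 3 (4.76%), and *Pthlh* and *Fam163b* in 1 each (1.59%). *Trib2* and *Amy1* were detected in 0 of 63 Pv cells, with an upper 95% exact limit of 5.69% on the share of cells with a UMI at these depths; cells with the transcript but no UMI of it are not counted by this. Whether these single molecules came from the cells or from stray RNA was not tested, and no blank wells were analysed here.

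To set cell types side by side at equal depth, cells of at least 10000 UMI (49 ChC, 59 Pv; 14 and 4 cells left out) were thinned to 10000 UMI by exact expectation. Detection was then 97.6% for *Trib2*, 96.2% for *Unc5b* and 95.4% for *Pthlh* in ChC. It was 77.6% for *Kit*, 71.5% for *Mctp2*, 56.5% for *Amy1* and 50.2% for *Fam163b*. The sums give a molecule of *Kit* or *Amy1* 2 chances of being kept. By the row with the most UMI, the means over batches were 74.8% for *Mctp2*, 67.1% for *Kit*, 55.3% for *Fam163b* and 47.1% for *Amy1*, a different order. In thinned Pv cells, *Thsd7a* was at 81.8% and *Zfp804b* at 76.1%, and the other 7 genes at no more than 4.39%. Among ChC batches the share differed most for *Fam163b*, *Mctp2*, *Amy1* and *Kit*, the genes detected in the fewest ChC cells. Among Pv batches it differed most for *Thsd7a* (45.1% to 95.7%) and *Zfp804b*, the genes detected in the most Pv cells. A share near either end of the scale leaves little room to differ. *Fam163b* was detected in 31.2%, 92.9%, 79.0% and 5.94% of thinned cells of ChC batches 1 to 4. *Mctp2* had 97.4%, 29.9%, 70.8% and 81.4%, and *Kit* 83.4%, 37.6%, 100% and 79.3%. These shares followed the order of the batch levels.

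**Figure D2:**
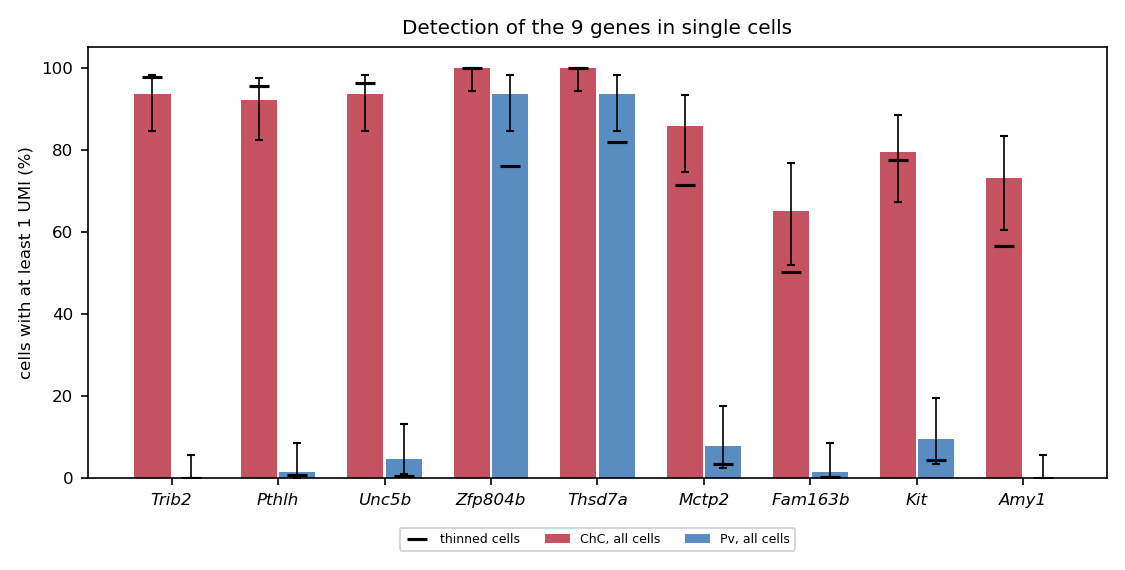
Share of cells with at least 1 UMI (vertical axis, percent) for each of the 9 genes, in 63 ChC cells (red) and 63 Pv cells (blue). Error bars are 95% exact binomial intervals, and black dashes give the share after thinning to 10000 UMI. Detection in Pv exceeds 10% for *Zfp804b* and *Thsd7a* only.

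Detection was set beside what the level of the batch and the depth of the cell would give. If the UMI of a gene in a batch are shared out over the cells in proportion to the cell totals, the number of ChC cells with *Fam163b* would be 44.2 (41 observed). For *Kit* it would be 51.8 (50 observed), for *Amy1* 46.7 (46), for *Mctp2* 53.9 (54), and for *Trib2* 60.4 (59). In Pv cells the same sharing gave 58 cells with *Zfp804b* (59 observed) and 58.8 with *Thsd7a* (59 observed). Seen from the cells without a UMI, departures were larger in places. *Trib2* was missing from 4 ChC cells against 2.62 by sharing, *Fam163b* from 22 against 18.8, and *Pthlh* from 4 cells of batch 1 against 1.08.

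Of the 9 genes, a ChC cell held 3 to 9 and a Pv cell 1 to 4, with overlap at 3 and 4. All 9 were detected in 31 of 63 ChC cells and 8 in another 12, while 44 of 63 Pv cells held exactly 2. Every ChC cell held at least 1 of the 7 genes nearly absent from Pv, and 48 of 63 Pv cells held none of them. These 7 were grouped by their low counts in Pv, so their rarity in Pv cells follows from the grouping. The 4 ChC cells with 3 or 4 genes had 1053 to 7073 UMI. Mean numbers rose with depth, from 5.64 in the 14 ChC cells under 10000 UMI to 7.57, 8.28 and 8.83 in cells of 10000 to 30000, 30000 to 60000 and above 60000 UMI. The corresponding Pv means were 1.5, 2, 2.3 and 2.4. Thinned to 10000 UMI, ChC cells held 7.44 ± 0.513 of the genes and Pv cells 1.67 ± 0.168 (mean ± SD over 4 batches). Without batch 4 the ChC mean was 7.64.

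**Figure D3:**
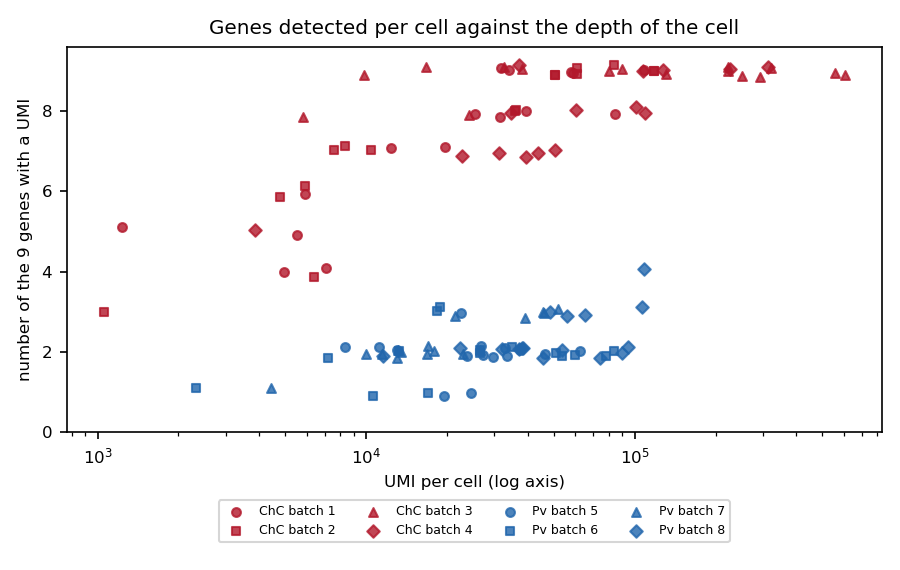
Number of the 9 genes with a UMI (vertical axis, shifted slightly at random so that points can be seen) against UMI per cell (horizontal axis, logarithmic) for 126 cells. Colours and shapes name the batches as in the plot of levels. ChC cells above 60000 UMI held 8 or 9 genes, and Pv cells held at most 4 at any depth.

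Co-detection was counted for the 36 pairs of genes. In ChC, each pair was found together in 35 to 63 of 63 cells (median 48.5). *Fam163b* and *Kit* shared the fewest cells, 35, and *Zfp804b* and *Thsd7a* shared all 63. The 15 pairs with *Zfp804b* or *Thsd7a*, in every ChC cell, are fixed at the product of the shares. Over the other 21 pairs, the product within each batch gave a median of 1.67 fewer cells than observed (from 0.375 more to 4.98 fewer). The largest excess was that of *Fam163b* and *Amy1*, with 37 cells together against 32.0 by the product. Among ChC cells with at least 10000 UMI this pair was at 33 against 31.7, but *Trib2*, *Pthlh*, *Unc5b*, *Zfp804b* and *Thsd7a* were in 49 of 49 such cells, so 30 of the 36 pairs could show no excess there. Over the other 6 pairs the median excess was 2.25 cells among all ChC cells and 0.221 among these deeper ones. When UMI were shared out in proportion to cell totals, *Fam163b* and *Amy1* would meet in 37.6 cells, close to the 37 seen. Over the 36 ChC pairs, the cells observed minus those by sharing had a median of -1.26 (-3.59 to 1.03).

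In Pv, 24 of the 36 pairs were never found together, 15 of which hold *Trib2* or *Amy1*, without a UMI there. For the other 9 the product of the shares gave at most 0.446 cells per pair, so that they never met says little. *Zfp804b* and *Thsd7a* met in 55 of 63 Pv cells, as the product of their shares gave (55). Of the 21 pairs among the other 7 genes, 1 pair, *Unc5b* and *Kit*, was seen, in 1 Pv cell. In ChC the same 21 pairs met in 35 to 57 cells each.

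Levels of the genes in single ChC cells were compared by Spearman's rank correlation of CPM over the 49 ChC cells with at least 10000 UMI, as a description, since cells share batches and depth. Over all these cells the 36 pairs ranged from -0.630 (*Mctp2* and *Fam163b*) to 0.714 (*Trib2* and *Kit*). Averaged within batches, the same pairs had -0.0208 and 0.0327. Of the 13 pairs above 0.5 in size over all cells, 2 were above 0.3 within batches. The highest mean within batches was 0.458, for *Zfp804b* and *Thsd7a*, which had 0.555, 0.164, 0.675 and 0.437 in batches 1 to 4. Pairs also went the other way: 9 of the 36 were larger in size within batches than over all cells. *Amy1* had 0.0639 over all cells and 0.368 within batches with *Trib2*, -0.263 and 0.301 with *Pthlh*, and -0.204 and 0.217 with *Kit*.

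**Figure D4:**
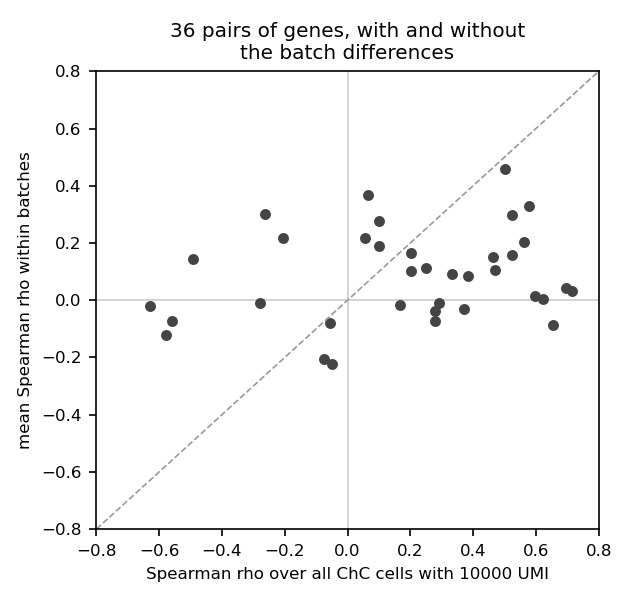
Spearman's rho between CPM of 2 genes over 49 ChC cells of at least 10000 UMI (horizontal axis) against the mean of rho within the 4 batches (vertical axis), for 36 pairs. The dashed line marks equal values. Values over all cells span -0.630 to 0.714, and values within batches -0.224 to 0.458.

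Genes with a batch pattern most like that of the 9 were ranked by Pearson's r of log2(CPM + 1) with the mean standardized profile, over 8 batches and 9731 genes. Among the first 5 were *Tmed8* (r = 0.984), *Cpeb2* (0.966), *M6pr* (0.961) and *Cntnap2* (0.953). That these are higher in ChC follows from the way they were ranked, and r over the 4 ChC batches alone was 0.914 for *Tmed8*, 0.584 for *Cpeb2*, 0.801 for *M6pr* and 0.321 for *Cntnap2*. *Cntnap2*, a neurexin-like protein of the axon, was at 1906 to 3166 CPM in ChC and 949 to 1213 CPM in Pv. *Tmed8* lay at 34.4 to 60.7 against 0 to 2.70 CPM.

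Over the 49 ChC cells, the gene with the highest rank correlation was *Tspan2* for *Trib2*, *Slc2a3* for *Pthlh*, *Gart* for *Unc5b*, *Sox6* for *Zfp804b* and *Fbxo21* for *Thsd7a*. It was *Fzd3* for *Mctp2*, *Ralb* for *Fam163b*, *Elp2* for *Kit* and BC090627 for *Amy1*. These 9 values lay between 0.750 and 0.907, out of 8545 genes, and their means within batches between 0.153 and 0.489. For *Trib2*, *Unc5b*, *Mctp2* and *Amy1* this mean leaves out a batch without a value, and both ends of the range are among them. *Sox6*, a transcription factor of interneurons from the medial ganglionic eminence, had 0.840 with *Zfp804b* over all cells and 0.233 within batches.

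Family members of the 9 genes were compared between ChC and Pv over animals, 2 against 2, by edgeR. Of all 9829 genes tested 0 (0%) passed an adjusted p of 0.05, 616 were at p under 0.05 without adjustment, and DESeq2 called 174 of 16531. Of 17 listed paralogs, 6 passed the filter on low counts, 0 were called and 1 was at p under 0.05 without adjustment. Their median log2 fold change was 0.29, beside 0.04 over all genes. None of the 17 had all ChC batches above all Pv batches. Over all genes with any UMI the share with this order was 1.58%, so nothing is read from its absence among 17. *Unc5d*, a netrin receptor like *Unc5b*, had 506, 199, 375 and 184 CPM in ChC and 78.9, 39.9, 194 and 35.8 CPM in Pv, a log2 fold change of 2.29 ± 0.75 (SE, adjusted p = 0.673 by edgeR). *Unc5c* had 0.44 ± 0.92, with its highest level, 675 CPM, in ChC batch 4. *Zfp804a* was at 97.3 to 576 CPM in ChC and 46 to 455 CPM in Pv, so that the relative of *Zfp804b* overlapped between the groups (log2 fold change 0.13 ± 0.79, SE). The hormone genes *Pth* and *Pth2* had no UMI, *Trib1* had UMI in ChC batch 4 only (26 CPM) and *Trib3* in Pv batch 8 only (2.17 CPM). These 4 genes, and *Amy2a5* above, were named after their values were seen.

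Ligands, receptors and signaling partners of *Kit*, *Unc5b*, *Pthlh* and *Trib2* made a list of 26 genes, of which 24 were in the table and 14 passed the filter. The test called 0 of them, with 2 at p under 0.05 without adjustment, and their median log2 fold change was 0.43, the same when a gene at 0 in Pv is set to its bound. *Gnas* and *Gnaq*, G protein subunits, had 0.52 ± 0.44 and -0.49 ± 0.55 (SE), with adjusted p of 0.976 and 0.991 by edgeR. *Dcc*, the attractive netrin receptor, ranged from 25.2 to 523 CPM in ChC and 43.8 to 243 CPM in Pv. Among netrins, *Ntn3* had 1.89, 35.0, 15.9 and 22.2 CPM in ChC and 0 in all Pv batches (99 UMI against 0, at least 13.8-fold, and 8.13-fold without Pv batch 8). It was named after its values were seen, as the 1 partner of 24 without overlap in this direction. Over all genes with any UMI that share was 1.58%, and nothing is read from the 1 partner. *Ntn3* did not pass the test (adjusted p = 0.598 by edgeR). The lack of overlap rests on 1 UMI in ChC batch 1. That level lies below where 3 counts would lie in any Pv batch (3.26 to 8.10 CPM). *Gab2*, also named after its values were seen, lay lower in every ChC batch (5.35 to 95.9 CPM) than in any Pv batch (109.5 to 227 CPM), with a log2 fold change of -1.33 ± 0.88 (SE, adjusted p = 0.923 by edgeR). *Pth1r*, the receptor of the *Pthlh* product, was at 4.59 to 13.7 CPM in ChC and 13.1 to 245 CPM in Pv, with a log2 fold change of -3.08 ± 1.23 (SE, adjusted p = 0.739 by edgeR). The stem cell factor gene *Kitl* had at most 4.49 CPM in ChC batches and 131, 0, 27 and 0 CPM in the Pv batches. *Pth1r* and *Kitl* were also named after their values were seen, as partners of members.

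Promoter sequences, 250 bases before to 50 bases after a start, were taken from RefSeq on build GRCm38.p6, whose coordinates differ from those of mm9 above. All 9 genes matched, with 11 starts, because *Kit* and *Amy1* have 2 each. Starts of the 8 genes other than *Amy1* were rich in G and C, from 62% (*Mctp2*) to 74% (*Pthlh*), beside a median of 52.7% over 32851 promoters. The *Amy1* starts held 42.7% and 38% with 3 and 1 CpG, whereas *Trib2* held 40 CpG and the median promoter 7. On both strands, 4 motifs were searched that do not overlap in these letters. The GC box (GGGCGG) was found in 7 of the 11 member promoters, those of 6 genes, and in 35.7% of all; the 2 *Kit* windows start 4 bases apart and hold the same box. The TATA box (TATAAA) was found in 1 of 11, an *Amy1* start, and in 13.6% of all. Neither the homeodomain core (TAATTA, 5.29% of all) nor a core bound by NKX2-1 (CTCAAG, 15.9% of all) occurred in the 11, which says only that these letters are not in these windows.

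The promoters of *Trib2* and of the second *Amy1* start are shown because these 2 genes had no UMI in any Pv cell yet differ in base composition, and that of *Pthlh* because it is the richest in G and C. They lie on the minus strand at chr12:15816736-15817035, chr3:113574713-113575012 and chr6:147263964-147264263, and capitals mark the GC box or the TATA box on either strand, which is a match of letters and not a shown site.
Trib2: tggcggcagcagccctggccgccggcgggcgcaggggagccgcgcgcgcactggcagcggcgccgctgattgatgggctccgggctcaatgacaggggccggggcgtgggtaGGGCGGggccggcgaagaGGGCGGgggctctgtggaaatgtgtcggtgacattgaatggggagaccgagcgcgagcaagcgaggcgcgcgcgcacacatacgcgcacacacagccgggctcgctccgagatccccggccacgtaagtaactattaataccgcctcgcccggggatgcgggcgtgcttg
Amy1: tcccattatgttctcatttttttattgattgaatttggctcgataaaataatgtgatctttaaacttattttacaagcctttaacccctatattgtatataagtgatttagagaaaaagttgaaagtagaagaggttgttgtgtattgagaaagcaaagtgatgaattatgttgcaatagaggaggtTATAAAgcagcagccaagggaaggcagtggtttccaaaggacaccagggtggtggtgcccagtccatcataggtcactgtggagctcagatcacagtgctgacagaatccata
Pthlh: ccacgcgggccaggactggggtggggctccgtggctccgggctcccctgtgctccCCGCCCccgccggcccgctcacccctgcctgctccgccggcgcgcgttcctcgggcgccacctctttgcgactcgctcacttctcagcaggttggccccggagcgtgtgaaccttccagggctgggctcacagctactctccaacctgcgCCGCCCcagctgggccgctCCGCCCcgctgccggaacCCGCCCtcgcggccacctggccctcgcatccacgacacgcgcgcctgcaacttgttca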

How the data were processed

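Single labelled cells were amplified linearly in 2 rounds from poly(A) RNA. Per the labels and the study's methods, the authors aligned reads to mm9 with Bowtie 0.12.7, kept 1 read per varietal tag, transcript and cell, and deposited whole-number UMI counts for 27207 rows without normalization. The 2 cells without counts were left out. The 9 genes and all gene lists were chosen with earlier results of these data known.

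Rows of a gene name were summed (7641250 UMI, against 6525445 with the row of most UMI per gene), and CPM were computed per batch. ChC and Pv were compared on sums per animal, and animals on sums per batch, with edgeR 4.0.16 in R 4.3.3 (quasi-likelihood test, TMM factors, filterByExpr, Benjamini-Hochberg adjustment, threshold 0.05). DESeq2 1.42.0 was an alternative. The tests were tried on simulated counts, whose outcome is not given here and from which nothing is read. Intervals are exact (95%), and floors are 3 counts. Each SE of a log2 fold change was computed back from the F statistic of edgeR's test.

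Named were the 9 genes, listed genes past the threshold or otherwise the 3 of highest CPM per list, and the genes of most similar pattern, of which 1 is not reported here. Sharing UMI out by cell totals was chosen after seeing the data. Other tools were Python 3.11.15, numpy, scipy and pandas.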

Additional observations from a re-analysis of the deposited data

Results flagged for a closer look

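Values that stood apart within a group of 4 batches were found 12 times among 56 groups examined by the gap of the highest or lowest batch to its nearest neighbour over the whole range, set against Dixon's 95% value for 4 samples. Chance alone gives about 1 in 20, and groups with a single value above 0 always pass. *Kit* in ChC batch 3 was at 1089.6 CPM, with a gap of 0.839 of the range to the next ChC batch. *Pthlh* was detected in 82.2% of thinned cells of ChC batch 2, below the other ChC batches, and *Thsd7a* in 99.97% in ChC batch 4, beside 100% in the others. In Pv batch 6, *Thsd7a* was detected in 45.1% of thinned cells, below the other Pv batches. The paralog *Unc5c* was at 675 CPM in ChC batch 4 and *Zfp804a* at 576 CPM in ChC batch 1.

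Low values in Pv rest on 1 to 3 UMI for *Pthlh*, *Unc5b* and *Fam163b*. *Pthlh* was at 2.19 CPM and in 2.96% of thinned cells in Pv batch 5, *Unc5b* at 3.26 CPM and in 2.46% in Pv batch 8, and *Fam163b* at 2.70 CPM and in 1.45% in Pv batch 7, with 0 in the other Pv batches. Causes were not tested.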

How the results depend on the processing

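The fitted log2 fold change of the 9 genes between ChC and Pv, whose sign the choice of genes fixes, moved by less than the spread between batches in 147 cases and by more in 14. These 14 are fits of *Trib2*, *Pthlh*, *Unc5b*, *Fam163b* and *Amy1*, with 0 to 3 UMI in Pv. For *Zfp804b* the range was 3.19 to 4.34, for *Thsd7a* 2.53 to 3.47, for *Mctp2* 5.23 to 7.10 and for *Kit* 4.94 to 7.70. *Fam163b* did not pass the filter with batches as samples. Of 16 detection rates with a spread above 0, 5 moved by more than it without thinning and 6 thinned to 5000 UMI. With 1 row per gene 0 moved, and at 2 UMI or more, also without thinning, 6 did. That last setting changed 2 choices at once, so its moves cannot be put down to the cut. For *Kit* and *Amy1*, whose molecules are listed in 2 rows, the cut tested nothing. Their ChC rates were the same as without thinning (79.6% and 72.9%). Folds from pooled counts without 1 batch were chosen after seeing the data. Without ChC batch 3, the fold or its lower bound changed by over 1.5 times for *Kit* (126 to 32.9) and *Trib2* (at least 557 to at least 256). It did so too for *Fam163b* (265 to 166) and *Unc5b* (402 to 266). Without Pv batch 7 this held for *Kit*. Without Pv batch 8 the ratios of *Pthlh* and *Fam163b* changed by over 1.5 times. That batch held none of their Pv UMI, so only the Pv total became smaller. For *Trib2* and *Amy1*, without a UMI in Pv, the lower bound moved by over 1.5 times for the same reason, which shows no change in the fold. Leaving out a Pv batch turned the ratio into a lower bound for *Pthlh* (batch 5), *Unc5b* (batch 8) and *Fam163b* (batch 7). Such a bound does not show that the fold changed.

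The count of all genes called between ChC and Pv was 0 by edgeR, 174 by DESeq2, 80 without a filter and 5 with batches as samples. It was 7 to 100 when 1 animal was left out (17, 51, 7 and 100 without animals 1 to 4, the lone animal being assumed to vary like the others) and 0 or 1 without 1 batch. Between the ChC animals it was 0 by edgeR, 97 by DESeq2, 3 without a filter and 0 without any 1 batch, and between the Pv animals 0, 93, 11 and 0. The cause was not tested.

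ChC cells held 7.44 of the 9 genes thinned to 10000 UMI and 6.29 thinned to 5000 UMI. Pv cells held 1.67, 1.22 thinned to 5000 UMI and 2.12 without thinning. Without 1 batch, the means were 7.22 to 7.64 and 1.59 to 1.72. The excess of co-detection over the product of shares, 0.271 cells per pair and ChC batch (0.465 over the 21 pairs not fixed at 0), was 0.0172 in cells of at least 10000 UMI and -0.348 against UMI shared out by cell totals, both chosen after seeing the data; 30 of the 36 pairs hold a gene in every such deep cell and so have no excess there.

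No paired analysis was possible because ChC and Pv came from different animals, and their batch numbers are only names. Depth limits what can be said of Pv cells: 0 UMI of *Trib2* or *Amy1* say little of levels under 1.33 and 1.55 CPM, where 3 counts would lie (*Amy1* by 1 row). Tags counted in 2 rows overstate the counts of *Kit* and *Amy1*, and 2 animals per cell type limit every comparison. Summing rows also raised the totals behind CPM and the cut at 10000 UMI (7641250 UMI against 6525445 in all). Genes listed in 1 row have a lower CPM for it.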
